A study of Mus musculus with 9 samples.

Results

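The genes of the cytoplasmic ribosomal proteins were described in J774A.1 cells, a mouse macrophage line. They were chosen by symbol alone, as the rows of the deposited expression table named Rpl or Rps with a number (and at most a letter and a further number behind it), together with Rplp0, Rplp1, Rplp2 and Rpsa. The rule found 86 of 26157 genes, of which 51 encode or resemble proteins of the large (60S) subunit and 35 those of the small (40S) subunit. GENCODE M21 annotates 81 of the 86 with a coding mRNA and the other 5 (Rps4l, Rpl6l, Rpl32l, Rps3a2 and Rps3a3) as pseudogenes. The table holds TPM, a transcript level per base of exon scaled to the same total in each library. Poly-A RNA was read from 9 libraries, 3 per group. Control cells (Ctrl) were cultured normally, M2 cells were given IL-4 and IL-13 at 10 ng/mL, the cytokines used to drive macrophages to the alternatively activated state, and Q11 cells were given Q11 along with IL-4 and IL-13. Q11 inhibits CYP2E1, a cytochrome P450 enzyme, according to the series title, which names M2 polarisation as its target. The dose of Q11, the cytokine dose in the Q11 group and the hours of exposure are not given in the sources used here, and J774A.1 is a single tumour-derived line. All 10 listed macrophage markers reached 1 TPM in at least 1 library, and Cd68 was at 2429.9 to 2653 TPM over the libraries. Summed, the 10 markers had 12561 to 12989 TPM in control libraries, 8232 to 8853 in M2 and 8589 to 8667 in Q11. Lck, read at 8.75 to 13.04 TPM, was the only one of 14 markers of other cell types found in the table to exceed 3 TPM, and Pax5 was at 0 in 8 libraries.

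Each cytoplasmic ribosome is built from 1 copy of nearly every member, set on ribosomal RNA, so the proteins are needed in equal numbers. The mRNAs are short and very abundant. Most carry a run of pyrimidines at their first bases, the TOP motif, through which mTORC1 and the RNA-binding protein LARP1 control how strongly they are translated. Reverse transcription of these mRNAs has left many processed pseudogenes in the mouse genome, and reads that match a gene and its copy equally can be counted to either.

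Between 15815847 and 17095787 reads were recovered from the TPM of 8 libraries, against 32193523 in Q11 replicate 2. Q11 replicate 2 held fewer reads than Q11 replicate 3 in 11 of the 19252 genes with reads in the latter, but fewer than each of the other 7 libraries in 1929 to 2413. Results that rest on Q11 are therefore also given after the reads of replicate 3 were taken out of replicate 2, which left it 15336276 reads ("separated"). That alternative was chosen after the sharing had been seen. The fits below use 1 estimate of the spread for all 3 groups, so p-values of M2 against control also draw on these Q11 libraries. SDs of Q11 as deposited count replicates 2 and 3 as separate libraries. M2 replicate 3 also stood apart: 79 of the 85 members tested lay above their own 9-library mean there, with a median deviation of 0.08 on the log2(TPM + 1) scale.

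The members together made up 7.62% ± 0.0954 of all TPM in control (mean ± SD, n = 3 libraries), 8.01% ± 0.200 in M2 and 7.70% ± 0.187 in Q11. With the shared reads separated the share in Q11 was 7.60% ± 0.359. By library the share was 7.55%, 7.73% and 7.58% in control, between 7.82% and 8.22% in M2, and 7.79%, 7.48% and 7.82% in Q11, with 7.18% in Q11 replicate 2 separated. Every M2 library lay above every control library and every Q11 library, the latter narrowly for Q11 replicate 3, and Q11 and control overlapped. TPM of the 60S members exceeded that of the 40S members by 1.56 to 1.59 times in all 9 libraries, a ratio that differed between groups by less than its spread (1.57 ± 0.0126 in control, 1.58 ± 0.0147 in M2, 1.58 ± 0.00638 in Q11). In bulk RNA, fewer transcripts per cell and a larger amount of all other RNA cannot be told apart.

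Levels of single members covered more than 3 orders of magnitude. Rplp1, a protein of the lateral stalk that recruits elongation factors, was highest at 5218, 5424 and 5222 TPM in control, 5284, 5638 and 5582 in M2 and 5507, 5382 and 5482 in Q11. Next came Rpl8 (3756 TPM, mean of 9 libraries), which lies close to the peptidyl transferase centre, then Rps3a1 (2751), Rpl32 (2640.3) and Rpl4 (2381). The ranges of Rps3a1 and Rpl32 over the libraries overlapped (2600.2 to 2962 against 2556 to 2771 TPM), and their order was not tested. The median member stood at 757 TPM, with 33 of the 81 coding members above 1000 TPM and 12 below 200. The lowest 5 were the pseudogene Rps4l (at most 1 read in any library), Rpl24 (2.19 TPM), Rpl3l (2.25), a paralog of Rpl3 made mainly in muscle, and the pseudogenes Rpl32l (2.72) and Rpl6l (3.41). The order depends on the length that TPM divides by: the exons used for a member summed to a median of 2.33 times the length of its main mRNA, and set against that mRNA Rps15a would stand at 2455 in place of 251 TPM.

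**Figure D1:**
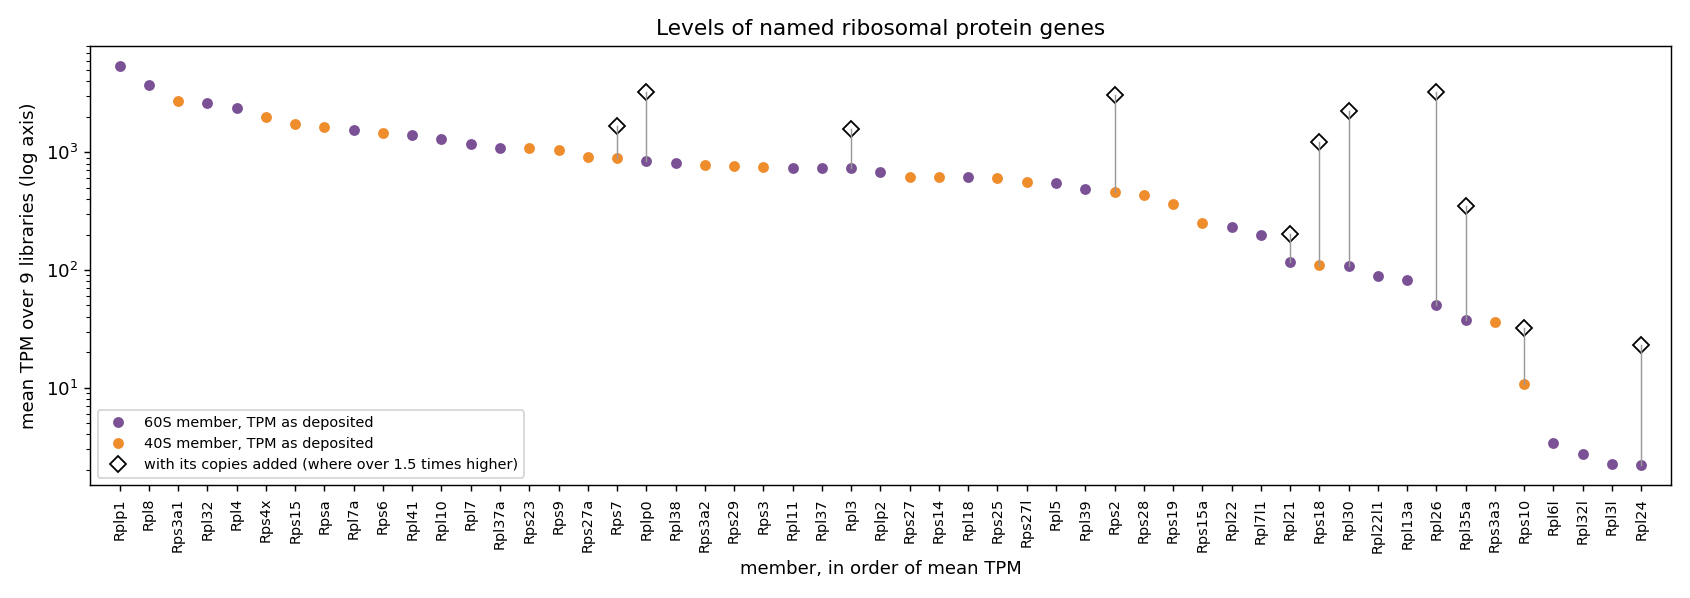
Mean TPM of 53 members named in the text with a level of at least 1 TPM, over the 9 libraries, on a log axis and in order of level. Purple points are members of the 60S subunit, orange points those of the 40S subunit, and open diamonds give the level with the TPM of copies added where that is over 1.5 times higher. Rpl26, Rpl30 and Rps2 move from 50.5, 107 and 458 TPM to 3264, 2257 and 3077 TPM.

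Several core members that every ribosome needs were low in the table while a copy of them was high. Rpl26, a 60S protein also known for binding the p53 mRNA, had 42.7, 51.9 and 59.8 TPM in control, 43.3, 61.2 and 58.4 in M2 and 42.6, 48.5 and 46.4 in Q11 libraries. Its processed pseudogene Gm15772 was listed at 2989.7 to 3416 TPM. Rpl30 averaged 107 TPM beside 2092 for Gm12191, Rps18 111 beside 1039.5 for the retrogene Rps18-ps5, and Rplp0, the base of the stalk, 841 beside 2128 for Gm8730. Of 553 pseudogenes and retrogenes that share 75-base words with a member, 13 were listed above that member. The median coding member shared 50.3% of the 75-base words of its mRNA with other genes, from 0% for members such as Rps3 and Rpl3l to 98.5% for Rps27. Genes that overlap on the same strand add to this for Rpl24 (71.5% of the mRNA lies in exons of Gm28037), Rps10 (91.6%, RPS10-NUDT3) and Rpl13a (59.3%, Gm45713), so the levels of these members are uncertain.

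The coding sequence of Rpl26 differs from Gm15772 at 2 of 435 aligned bases, that of Rpl30 from Gm12191 at 1 of 345, and that of Rps18 from Rps18-ps5 at 3 of 456. The stretches below show how little sequence is left to tell member and copy apart. They are 60 bases of coding sequence (GENCODE M21, GRCm38, 5′ to 3′ on the gene's strand) with the base that differs in capitals, for Rpl26 and Rpl30.
Rpl26, chr11:68903179-68903238, plus strand: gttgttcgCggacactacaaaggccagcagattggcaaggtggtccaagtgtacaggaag
Gm15772, chr5:3236599-3236658, plus strand: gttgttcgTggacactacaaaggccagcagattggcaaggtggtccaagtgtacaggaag
Rpl30, chr15:34442706-34442765, minus strand: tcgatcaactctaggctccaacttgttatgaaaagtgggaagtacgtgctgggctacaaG
Gm12191, chr11:49678962-49679021, minus strand: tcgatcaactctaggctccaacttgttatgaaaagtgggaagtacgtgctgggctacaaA
The copies held 1.61% ± 0.0254 of all TPM in control, 1.65% ± 0.0299 in M2 and 1.67% ± 0.0303 in Q11 (n = 3 libraries each), and 1.60% in Q11 replicate 2 separated. Each library with cytokines as deposited lay above each control library, by little more than the spread.

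Start regions in RefSeq's promoter table (GRCm38.p6) were found for 62 of the 86 members, some with several starts. A C followed by at least 4 further pyrimidines, beginning within 5 bases of the annotated start on the gene's strand, was present at 32 of their 74 starts (43.2%), beside 18.3% of all 32851 starts in the table. Starts are shown for 7 members whose RNA results are given below, from 10 bases before the annotated start to 20 from it on, with the match in capitals. The match begins at a C, and in Rpl7a, Rps9 and Rpl38 pyrimidines also stand directly before it. The 7 were taken from the starts that hold a match. Of the 12 members that rose in M2, 9 have a start in the table and 5 of these a match. Rpl7a, Rps9, Rpl18, Rps2 and Rps27l rose in M2, Rpl13a rose in Q11 against control, and Rpl38 was low in Q11.
Rpl7a, chr2:26910797-26910826, plus strand: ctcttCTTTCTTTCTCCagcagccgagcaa
Rps9, chr7:3704031-3704060, plus strand: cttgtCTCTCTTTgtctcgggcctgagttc
Rpl18, chr7:45718061-45718090, plus strand: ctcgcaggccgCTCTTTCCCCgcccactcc
Rps2, chr17:24720053-24720082, plus strand: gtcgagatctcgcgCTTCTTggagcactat
Rps27l, chr9:66946076-66946105, plus strand: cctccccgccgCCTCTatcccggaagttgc
Rpl13a, chr7:45128726-45128755, minus strand: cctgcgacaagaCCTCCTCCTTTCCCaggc
Rpl38, chr11:114668570-114668599, plus strand: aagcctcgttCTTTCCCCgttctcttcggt
Other short words were looked for on both strands of the 300-base window from 250 bases before the start to 50 after it. CCGGAA, the core bound by ETS factors such as GABP, was in 47.3% of member starts and 14.9% of all starts. GGGCGG, the core of the Sp1 site, was in 59.5% against 35.7%, and TATAAA in 10.8% against 13.6%. These are matches of letters in a window and do not show binding.

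M2 was compared with control to see what the cytokines did to ribosomal protein mRNA. Of the 85 members with at least 1 TPM in at least 3 libraries, 12 rose, none fell, and the rises were small, between 0.10 and 0.19 on the log2(TPM + 1) scale (7.14% to 14.4%). Among all 14207 genes tested 6.88% rose and 5.75% fell by the same rule (limma, Benjamini-Hochberg adjusted p under 0.05). The median member change was 0.07, with 77 of 85 members above 0, beside a median of -0.0026 over all genes, of which 49.4% were above 0. Groups did not overlap for 34 members, 33 of them higher in M2 and Rpl6l lower, where all genes gave 14.5% higher and 13.9% lower. Quantile normalization gave a member median of 0.04 with 63 members above 0. The 60S and 40S members had medians of 0.07 and 0.06, with 6 members called in each.

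Among the 60S members, Rpl7a, an RNA-binding protein of the large subunit, had 1471, 1456 and 1414 TPM in control, 1636, 1589 and 1605 in M2 and 1599, 1525 and 1572 in Q11 libraries. All M2 libraries lay above all control libraries, with a mean of 1447 ± 29.5 in control and 1609.9 ± 23.7 in M2 (SD, n = 3), and limma gave 0.15 (95% confidence interval 0.09 to 0.22, adjusted p = 0.00759). Over the alternatives its adjusted p ran from 0.000285 to 0.0566. Rpl8 had 3559, 3662 and 3551 TPM in control, 3830.2, 4008 and 4015 in M2 and 3827, 3696 and 3654 in Q11 libraries. Its M2 libraries were again all above control (0.14, 95% confidence interval 0.07 to 0.21, limma adjusted p = 0.0197). Rpl18 was at 578, 595 and 582 TPM in control and 670.2, 646 and 636 in M2, with no overlap and a change of 0.15 (limma adjusted p = 0.0169). Rpl11, which with Rpl5 and the 5S RNA can bind and block MDM2, rose by 0.10 (limma adjusted p = 0.0452). Its partner Rpl5 was at 548, 552 and 549 TPM in control and 532, 548 and 573 in M2 (0.00, 95% confidence interval -0.06 to 0.07). Over the alternatives the change of Rpl5 ran from -0.07 to 0.15 and that of Rpl11 from 0.09 to 0.11. Rpl5 shares 92.5% of the words of its mRNA with other genes, Rpl7a 77.4%, Rpl18 65.45% and Rpl11 61%, so the levels of these members are uncertain. Rpl8 shares 4.89%. Whether the changes of Rpl5 and Rpl11 differed was not tested.

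Among the 40S members, Rps9, a protein at the entry of the mRNA channel, had 1026, 1028 and 1014 TPM in control, 1112, 1087 and 1111 in M2 and 1024, 1018 and 1054 in Q11 libraries. The control and M2 libraries did not overlap, and the change was 0.11 (95% confidence interval 0.06 to 0.16, limma adjusted p = 0.0154). Rps2, its neighbour there, rose by 0.12 (limma adjusted p = 0.0189). This is a mean of 443 ± 13.3 TPM in control and 483 ± 7.11 in M2, next to a pseudogene, Rps2-ps10, listed at 2468 TPM. Summed with its pseudogenes Rps2 no longer passed (0.10, limma adjusted p = 0.345), nor when summed with those that share words (0.08, limma adjusted p = 0.388). Rps15, near the decoding site, rose by 0.12 (limma adjusted p = 0.0272) and Rps7 by 0.11 (limma adjusted p = 0.0437). Rps7 shares 68.9% of the words of its mRNA with other genes, so its level is uncertain. Rps6, the substrate of the S6 kinases, was at 1469, 1421 and 1435 TPM in control and 1448, 1481 and 1525 in M2 and did not pass (0.04, limma adjusted p = 0.484). Rpsa (0.06), Rps3 (0.10), Rps19 (0.08), Rps14 (0.12) and the ubiquitin fusion Rps27a (0.03) did not pass either.

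The 3 stalk genes gave changes of 0.08 for Rplp0, 0.06 for Rplp1 and 0.07 for Rplp2, with limma adjusted p of 0.172, 0.315 and 0.466. Rps10 (0.39, limma adjusted p = 0.107) and Rpl21 (0.17, 0.141) had the other larger positive values, at 8.82 ± 0.997 and 112 ± 6.44 TPM in control. At the negative end were the pseudogene Rpl6l (-0.64, limma adjusted p = 0.0612, 7 to 12 reads per M2 library), Rpl24 (-0.14), Rpl3l (-0.11), Rps3a3 (-0.09) and Rpl39 (-0.08), none past the threshold.

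The number of members called in M2 rests on the libraries used. With the shared reads separated 4 were higher (among them Rpl7a, Rpl8 and Rps2), beside 4.9% of the 14023 genes then tested. Rps15 (limma adjusted p = 0.0504), Rps9 (0.055), Rps7 (0.0661), Rpl7l1 (0.0692), Rpl18 (0.107), Rpl11 (0.192) and Rps27l (0.238) then did not pass. Leaving out M2 replicate 3 gave 4 higher (Rpl7a, Rps9, Rpl18 and Rpl8) and 1 lower (Rpl6l, -0.79, limma adjusted p = 0.044) of 85, beside 4.93% and 4.72% of all genes, with a median of 0.04 and 65 of 85 members above 0, and with both steps together none passed. Leaving out Ctrl replicate 1, 2 or 3 gave 3, 7 and 2 higher (4.33%, 4.88% and 4.48% of all genes), and M2 replicate 1 gave 5 (4.4%). Of the 24 alternatives, the rise in M2 passed in 23 for Rpl7a, in 18 each for Rpl8, Rpl18 and Rps9, in 17 for Rps2 and in 14 for Rps15. It passed in 12 or fewer for Rps27l (12), Rpl7l1 (9), Rpl11 (8) and Rps7 (6).

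**Figure D2:**
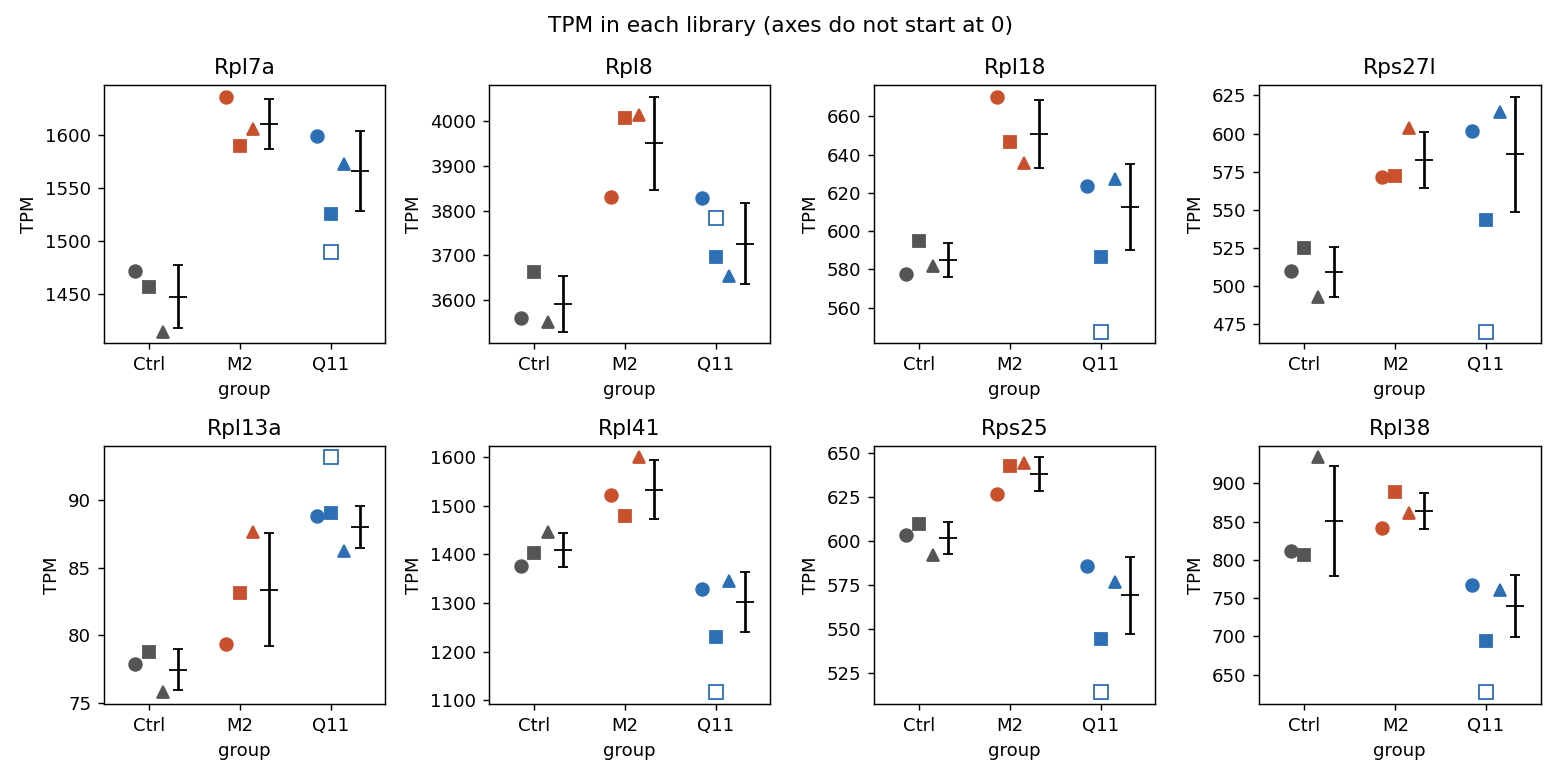
TPM of 8 members in each library, with circles, squares and triangles for replicates 1, 2 and 3, bars for the mean and SD of a group, and an open square for Q11 replicate 2 with the shared reads separated. The axes do not start at 0. For Rpl7a, Rpl8 and Rpl18 all M2 libraries lie above all control libraries, and for Rpl41, Rps25 and Rpl38 all Q11 libraries lie below all M2 libraries.

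**Figure D3:**
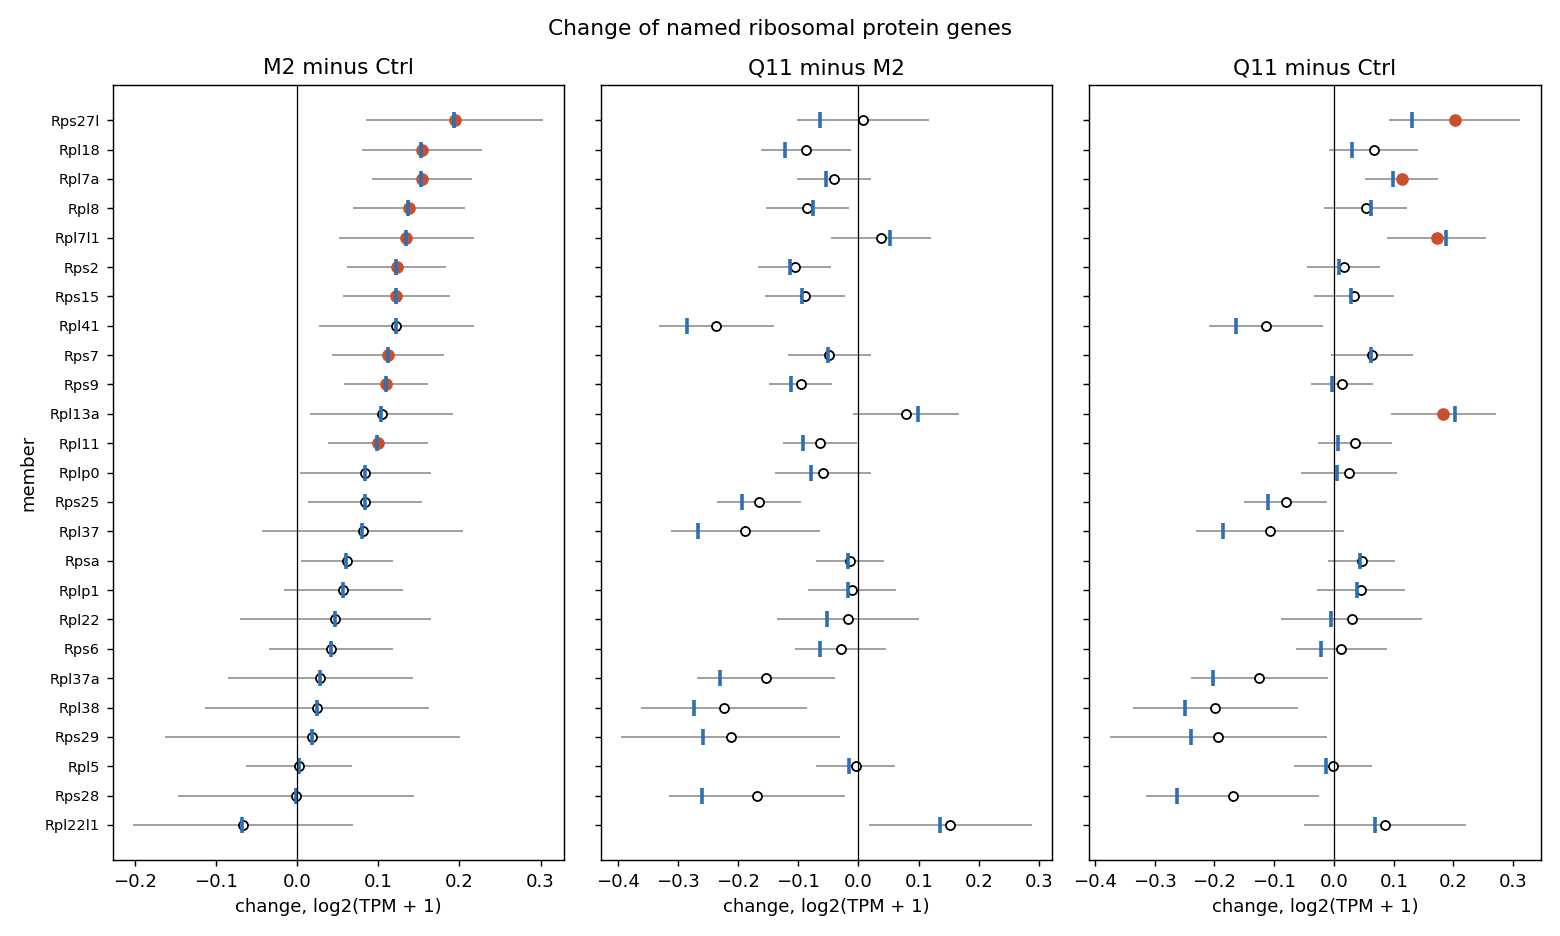
Change of 25 named members on the log2(TPM + 1) scale in the 3 comparisons, with the 95% confidence interval of the limma fit. Filled points have an adjusted p under 0.05 and blue bars give the value with the shared reads separated. The 10 members shown that were called in M2 against control lie between 0.10 and 0.19, and no member is called in Q11 against M2.

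Q11 was compared with M2 to see whether Q11 altered what the cytokines did. No member passed the threshold, and neither did any of the 14207 genes (0.0%; limma, smallest member adjusted p = 0.256). At an unadjusted p under 0.05 there were 22 members lower and 3 higher of 85, against 5.36% and 6.05% of all genes. The median member change was -0.05, with 70 of 85 members below 0, and the median over all genes was -0.00088. Quantile normalization gave a member median of -0.03. Groups did not overlap for 19 members lower in Q11 and 1 higher (8.43% and 9.18% of all genes). With the shared reads separated 18 were lower without overlap (5.2% of all genes) and the median was -0.07, while without M2 replicate 3 the median was -0.02 with 57 members below 0. limma-voom on the recovered reads called Rpl41 alone (adjusted p = 0.0101) and none once the reads were separated, over a range of 0.0101 to 0.831 across all alternatives for that gene.

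The members with the larger negative values included several with the shortest coding sequences. Rpl41, whose coding sequence of 75 bases is the shortest of all members, had 1377, 1402 and 1446 TPM in control, 1523, 1478 and 1599 in M2 and 1329.6, 1231 and 1345 in Q11 libraries. Every Q11 library was below every control and every M2 library, at a mean of 1302 ± 62.2 TPM against 1533 ± 61.3 in M2 (SD, n = 3), and the change was -0.24 (95% confidence interval -0.33 to -0.14, limma adjusted p = 0.256). Separated, Q11 replicate 2 stood at 1116 TPM and the change at -0.28. Rps25, a 40S protein that several viral RNAs need to recruit ribosomes, had 603, 609.8 and 592 TPM in control, 627, 643 and 644 in M2 and 586, 545 and 577 in Q11 libraries. Here too the Q11 libraries were the lowest 3 (-0.16, 95% confidence interval -0.23 to -0.09, limma adjusted p = 0.256). Rpl38, which helps to translate a set of Hox mRNAs in the embryo, had 811, 807 and 934 TPM in control, 841, 888 and 861 in M2 and 767, 694 and 760.3 in Q11 libraries. Its Q11 libraries were all below the others (-0.22, 95% confidence interval -0.36 to -0.09, limma adjusted p = 0.312). Rps29 (-0.21), Rpl37 (-0.19) and Rpl26 (-0.22) followed, and the pseudogene Rpl32l had the largest negative value (-0.30) on 4 to 8 reads per library.

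Of the members that rose in M2, Rps9 (-0.10), Rps2 (-0.11), Rps15 (-0.09), Rpl18 (-0.09), Rpl8 (-0.08) and Rpl11 (-0.06) lay lower in Q11 than in M2 with no overlap, without passing the test. For Rpl8 the gap was narrow. Among all genes 8.43% lay lower without overlap. Both comparisons use the same M2 libraries, and members picked for high M2 values tend to lie lower in any other group. Rpl7l1 (0.04) and Rpl13a (0.08) had values above 0, and Rps27l stood at 0.01 as deposited and -0.06 separated. Rpl6l (0.63), Rpl22l1 (0.15), Rpl24 (0.14, but -0.20 without M2 replicate 1), Rpl13a and Rps3a2 (0.07) had the 5 largest positive ones.

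Grouped by coding length, the 10 members under 300 bases had a median change of -0.16 in Q11 against M2 and the 24 of 600 bases and over -0.04 (-0.24 and -0.05 separated). Other genes of at least 50 TPM gave -0.05 for 120 short and -0.02 for 2809 long ones. The difference was largest in 1 library: the short members deviated from their 9-library mean by a median of -0.20 in Q11 replicate 2 as deposited and -0.39 separated, by -0.07 in Q11 replicate 1 and by -0.01 in Q11 replicate 3. Short genes outside the group moved the same way in Q11 replicate 2, by -0.06 as deposited and -0.12 separated. Without Q11 replicate 2 the short members still had a median of -0.11 and the long ones -0.02. Across the 81 coding members the Spearman correlation of change and coding length was 0.16 in Q11 against M2 (0.30 separated and 0.068 without Q11 replicate 2), 0.40 in Q11 against control and 0.26 in M2 against control, a description over genes that share libraries.

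**Figure D4:**
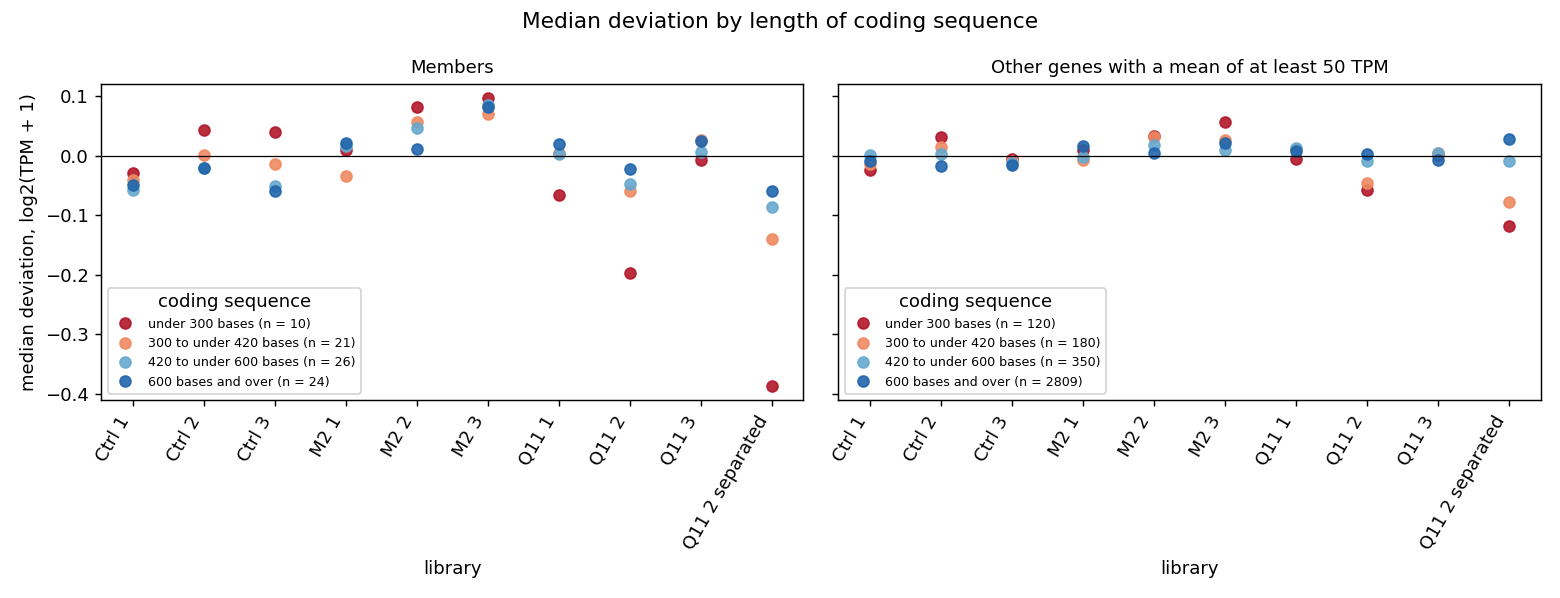
Median deviation from the 9-library mean on the log2(TPM + 1) scale in each library, by class of coding length, for the coding members (left) and for other genes of at least 50 TPM (right). The last position on each axis is Q11 replicate 2 with the shared reads separated. The shortest members are at -0.20 in Q11 replicate 2 and at -0.39 once separated, and other short genes at -0.06 and -0.12.

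**Figure D5:**
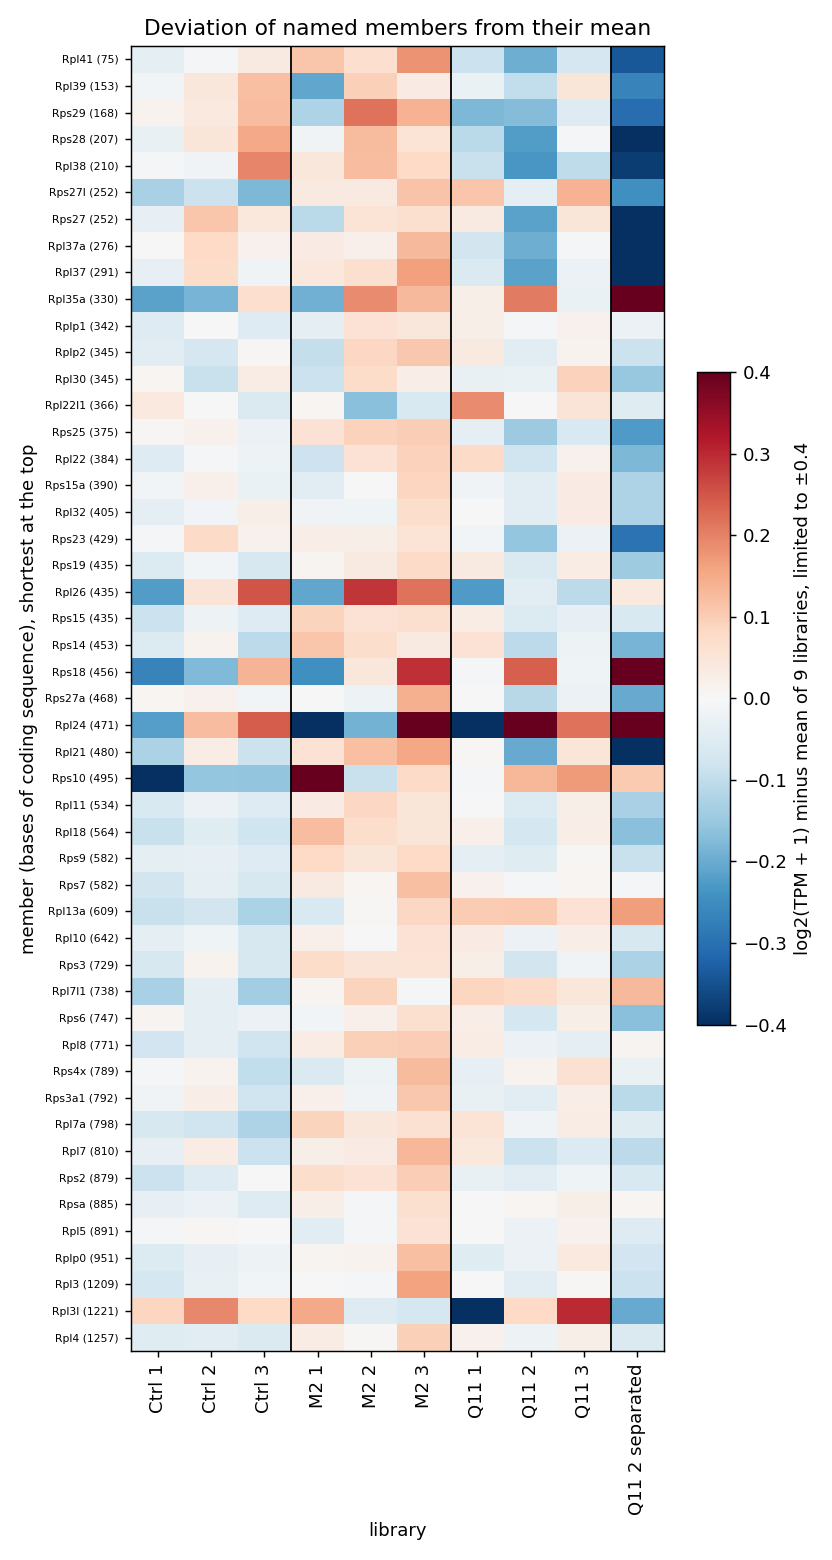
Deviation of each of 49 coding members named in the text from its 9-library mean, in colour on the log2(TPM + 1) scale, with libraries in columns and members in order of coding length, the shortest at the top. The last column is Q11 replicate 2 separated. In the top rows blue gathers most in Q11 replicate 2 and its separated column, and M2 replicate 3 is red for most of the members shown. Over all members under 300 bases the median was -0.20 in Q11 replicate 2, -0.07 in replicate 1 and -0.01 in replicate 3.

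Q11 was also compared with control, which shares its libraries with both comparisons above. Rpl13a, Rpl7l1, Rps27l and Rpl7a rose and none fell, of 85 members (5.19% and 5.53% of all genes rose and fell). The median member change was 0.01, with 52 members above 0, and turned to -0.0023 with 40 above 0 once the reads were separated. Rpl13a, a 60S protein that can leave the ribosome to silence inflammatory mRNAs after interferon gamma, had 77.8, 78.7 and 75.7 TPM in control, 79.3, 83.1 and 87.7 in M2 and 88.8, 89.0 and 86.3 in Q11 libraries. Q11 libraries did not overlap control, at a mean of 88.0 ± 1.56 against 77.4 ± 1.53 TPM (SD, n = 3) and a change of 0.18 (95% confidence interval 0.10 to 0.27, limma adjusted p = 0.0185). Rpl7l1, a paralog of Rpl7 found on ribosome precursors, had 179, 191 and 178 TPM in control, 198, 209 and 195 in M2 and 208, 207 and 202 in Q11 libraries. Its change was 0.17 (95% confidence interval 0.09 to 0.25, limma adjusted p = 0.0186), and it had also risen in M2 (0.13, limma adjusted p = 0.0441). With the shared reads separated Rpl13a and Rpl7l1 kept an adjusted p under 0.05 (0.0249 and 0.0222), beside 3.89% of all genes higher. Rpl7a (0.11) and Rps27l (0.20) did not (0.126 and 0.474). Of the 24 alternatives the rise passed in 18 for Rpl7l1, 17 for Rpl13a, 13 for Rps27l and 12 for Rpl7a.

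Groups did not overlap for 12 members higher (14.1% of 85) and 6 lower (7.06%) in Q11 than in control. Both shares were below those of all genes (16.3% and 15.8%). The 6 lower members were Rpl37a, Rpl38, Rpl41, Rps23, Rps25 and Rps29. None passed the threshold in the limma fit (Rpl38 -0.20, adjusted p = 0.0747), while limma-voom on the recovered reads called 5 members higher (7.32% of all genes) and Rpl38, Rpl41, Rps28, Rps29 and Rpl37a lower (7.78% of all genes), Rpl38 with the smallest value (adjusted p = 0.00586, range over alternatives 0.00586 to 0.226) and Rps28 with -0.17 in the limma fit (voom adjusted p = 0.0158, range 0.0158 to 0.383). Rpl3l (-0.25) had the largest negative value, on 7 to 24 reads in Q11 replicates 1 and 3, and stood at 0.07 without Q11 replicate 1, and Rpl32l (-0.17) was also among the lowest 5. Rps10 (0.34), Rpl35a (0.18) and Rps18 (0.18) were among the 5 largest positive ones.

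Some members have a paralog that can take their place. Rps27l, a p53-inducible paralog of Rps27, had 509.7, 525 and 492 TPM in control, 571, 572 and 604 in M2 and 602, 543 and 614 in Q11 libraries. It rose in M2 by 0.19 (95% confidence interval 0.09 to 0.30, limma adjusted p = 0.0314), and separated Q11 replicate 2 stood at 469.9 TPM, below all control libraries. Rps27 itself had 604, 667 and 636 TPM in control, 573, 641 and 647 in M2 and 633, 532 and 639 in Q11 libraries. The share of Rps27l in the TPM of both was 45.8%, 44.0% and 43.6% in control, 49.9%, 47.2% and 48.3% in M2 and 48.7%, 50.5% and 49.0% in Q11. It was higher in each library with cytokines than in any control library, and 52.9% in Q11 replicate 2 separated. Rps27 shares 98.5% of its 75-base words with other genes, so its level and this share are uncertain. Rpl22l1 took 27.8% ± 0.903 of its pair with Rpl22 in control, 26.3% ± 2.28 in M2 and 28.6% ± 0.565 in Q11 (SD, n = 3), ranges that overlapped between control and both other groups. Rpl7l1 took 13.8% ± 0.199 of the pair with Rpl7 in control, 14.2% ± 0.828 in M2 and 15.3% ± 0.533 in Q11. Rpl3l stayed under 0.4% of the pair with Rpl3 in all 9 libraries. The pseudogene Rps3a2 was listed at 21.2% to 23.3% of its pair with Rps3a1, with which it shares 65.5% of its 75-base words, so reads from those stretches cannot be told apart. Rps4x, the X-linked gene, was at 1846 to 2158 TPM, and Rpl10, also X-linked, at 1226 to 1337 TPM. Rpl39 was at 485, 505 and 531 TPM in control, 424, 522 and 499.9 in M2 and 480.4, 457 and 506 in Q11, with overlap of all groups.

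Other genes of translation were taken from lists of ribosome components, elongation factors, TOP transcripts, mTORC1 and TOP control, transcription regulators, and chaperones and surveillance of ribosomal proteins. For the counts below, 6.88% of all genes rose and 5.75% fell in M2 against control. In Q11 against control 5.19% rose and 5.53% fell. With separated reads 4.9% rose in M2 and 3.89% in Q11 against control. The lists were not tested against these shares. The 6 further ribosome components, among them Fau and Rack1, gave no call in any comparison. Their median change was 0.09 in M2 against control, -0.09 when Q11 was set against M2 and 0.02 when it was set against control. Fau, which encodes the 40S protein eS30 as a fusion, was at 1732, 1778 and 1789 TPM in control, 1839, 1812 and 1870.1 in M2 and 1761, 1643 and 1754 in Q11. Its M2 libraries lay above both other groups (0.06, limma adjusted p = 0.287). Rack1 (0.07) did not pass.

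Of 9 elongation factor genes 2 rose in M2 and in Q11 against control, and both held with separated reads. Eif5a, which helps ribosomes through stalling sequences, went from 1627 ± 24.7 TPM in control to 1921 ± 18.3 in M2 (0.24, limma adjusted p = 0.000363) and 1855 ± 35.5 in Q11. Eef1d went from 112 ± 3.52 to 131 ± 3.56 (0.22, limma adjusted p = 0.00358). The most abundant, Eef1a1, was at 9417 ± 192 TPM in control and 9776 ± 583 in M2 and did not pass (0.05), nor did Eef2 (0.08, limma adjusted p = 0.15).

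Of 27 other TOP transcripts 7 rose in M2 (2 with separated reads) and none fell, with a median of 0.09. Eif4b, an initiation factor, changed by 0.17 (limma adjusted p = 0.0025), Tmem97 by 0.20 (0.00689), Imp3 by 0.21 (0.0145) and the host gene Snhg5 by 0.23 (0.0319). Tpt1 gave -0.07 and did not pass. In Q11 against control 9 of the 27 rose (3 separated), with a median of 0.13, and in Q11 against M2 none was called.

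Of 22 genes of mTORC1 and TOP control 2 rose in M2 (1 with separated reads): Eif4g1 (0.17, limma adjusted p = 0.00331) and Rptor (0.19, 0.0244). Mtor (0.03), Larp1 (0.09), Rps6kb1 (-0.01) and Eif4ebp1 (0.02) did not pass. Eif4e (0.16) and Eif2ak4 (0.27) were higher in Q11 than in control (limma adjusted p = 0.00464 and 0.0188). Among 13 transcription regulators Myc, which drives ribosome production, rose from 14.1, 13.6 and 16.96 TPM in control to 21.96, 22.95 and 22.02 in M2 and stood at 21.5, 22.8 and 23.2 in Q11. All libraries with cytokines lay above control (0.56 in M2, limma adjusted p = 0.00198, and 0.57 in Q11, 0.00195). Mxd4, which opposes Myc, also rose in M2 (0.42, limma adjusted p = 0.0453), and 1 of the 2 held with separated reads.

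Of 21 genes on the chaperone and surveillance list 3 rose and 1 fell in M2 (1 and 1 with separated reads). Rrs1, which brings Rpl5 and Rpl11 with the 5S RNA into the forming 60S subunit, rose from 207 ± 10.3 to 264 ± 23.1 TPM (0.35, limma adjusted p = 0.00777). Ncln (0.13) and Gcn1 (0.14) rose too (limma adjusted p = 0.0482 and 0.0457). Ncln was on the list but is not a known chaperone or surveillance factor of ribosomal proteins. Mdm2, the ligase that Rpl5 and Rpl11 can block, fell from 83.8 ± 2.57 to 73.1 ± 2.11 TPM (-0.20, limma adjusted p = 0.00864, and 0.0258 with separated reads). In Q11 against control Rrs1 (0.26), Heatr3 (0.25) and Pdcd2l (0.19) rose (limma adjusted p = 0.0318, 0.0409 and 0.0318), and with separated reads only Rrs1 did. No gene of these lists was called in Q11 against M2.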

How the data were processed

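Poly-T selected RNA of 9 J774A.1 libraries, 3 per group, was prepared with a kit of the NEBNext Ultra line, per the labels. Per the submitters' processing notes, the tools were HISAT2 2.0.5 and StringTie 1.3.3b, and the builds mm10 and GRCm38. The annotation release and read counting settings are not given in the sources used here. TPM per gene, in 1 table, are what the authors deposited. TPM times exon length (GENCODE M21, 97.8% of IDs found) came in whole steps, within 0.1 read for 98.8% to 99.1% of values up to 20 reads, which gave recovered reads per library. Genes reaching 1 TPM in 3 or more libraries were fitted as log2(TPM + 1), a scale that understates changes of low genes, with limma 3.58.1 in R 4.3.3 (1 mean per group, trend, 6 residual degrees of freedom). Tests were two-sided, with Benjamini-Hochberg adjustment over all genes tested and 0.05 as threshold. Whether a group's libraries are separate cultures is not stated in the labels, and p-values cover only the spread between these libraries. On simulated data the fit recovered 26% of changes of 0.3 on this log2 scale and 85% of changes of 1, with 7 false calls. The simulated libraries were independent, unlike Q11 replicates 2 and 3, so these rates need not hold for the deposited table. Changes as small as those called for members were not simulated. The lack of a call therefore does not show that a gene stayed the same.

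The members and lists were chosen with earlier results of these data known. Named were the members called in a comparison, the 5 largest changes each way, the 5 highest and 5 lowest levels, 30 fixed members, up to 4 called genes per list and 11 fixed translation genes. Some genes that this rule names are not reported here, and Rpl39l and Rpl10l were not analysed here. Rps25, Rps28, Rpl37, Rpl37a and the members listed for not overlapping or for their reads were singled out after their values had been seen. Alternatives were other pseudocounts, filters, scalings, limma-voom on recovered reads, copies added to members, separated reads, a replicate block and leaving out each library. Further software was Python 3.11.15 with numpy 2.4.6, pandas 2.3.3 and, for plots, matplotlib 3.10.9. Sequences came from RefSeq (GRCm38.p6) and GENCODE M21.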

Additional observations from a re-analysis of the deposited data

How the results depend on the processing

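The median member change moved by less than the spread between libraries in all 24 alternatives, from 0.04 to 0.09 in M2 against control, -0.07 to -0.02 for Q11 and M2, and -0.01 to 0.04 in Q11 against control, where its sign turned. The 14 called changes of members named in the text kept their direction in all alternatives. Of the other 145, 60 turned in at least 1, among them Rps2 in Q11 against M2, from -0.11 to 0.01 with word-sharing copies summed in, and Rpl3l, Rpl24 and Rpl35a. Counts of called members moved more. In M2 against control, 12 higher became 3 with no filter on low values, 1 with no mean-variance trend, 4 with shared reads separated, 0 when M2 replicate 3 was also left out and 20 by limma-voom, and leaving out 1 library gave 2 to 11. The 0 lower became 1 (Rpl35a) with word-sharing copies summed in, and 0 to 1 with 1 library left out. In Q11 against M2, 0 lower became 1 by limma-voom. In Q11 against control, 4 higher became 2 with no filter, 7 with quantile normalization, 0 with no trend, 2 with shared reads separated (also by limma-voom or without M2 replicate 3), 1 with the mean of Q11 replicates 2 and 3 as 1 library, and 0 to 5 with 1 library left out. The 0 lower became 2 with quantile normalization, 5 by limma-voom, also with separated reads, and 0 to 1 with 1 library left out. With a replicate block the calls were 6 higher in M2 against control and 1 in Q11 against control. Deviations of libraries with the same replicate number correlated at -0.0309 to 0.0362 (9 pairs), and those with different numbers at -0.0466 to 0.059 (18 pairs). Same-numbered libraries were thus no more alike by this measure. Whether they were handled together was not tested. The causes of these shifts were not tested, apart from fewer libraries where some were left out. Members below 20 reads per library (Rpl24, Rpl3l, Rpl6l, Rpl32l and Rps4l, bar a few libraries) carry wide counting error.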
